A study of Mus musculus with 24 samples.

Results

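Hepatokines are proteins that liver cells, mainly the hepatocytes that carry out its metabolism, release into the blood to act on other organs. The transcripts described here encode 7 of them: fetuin-A (Ahsg), fetuin-B (Fetub), selenoprotein P (Selenop), angiopoietin-like 8 (Angptl8), the activin E subunit (Inhbe), follistatin (Fst) and tsukushi (Tsku). They were taken by gene name, with earlier results of these data known, and 7 of 7 were found among the 55421 genes of the count table. All 7 were among the 13583 genes that passed the filter on low counts.

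The fetuins are plasma glycoproteins of the cystatin superfamily, and fetuin-A binds the insulin receptor and mineral. Selenoprotein P carries selenium from the liver to other organs, and ANGPTL8 takes part in restraining lipoprotein lipase after feeding. Activin E is a ligand of the TGF-β family that is made mainly by hepatocytes and restrains lipolysis in fat. Follistatin binds and neutralises some activins, and tsukushi is a small leucine-rich proteoglycan that the liver secretes.

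PolyA RNA was sequenced from hepatocytes purified after liver perfusion from 24 male mice, in 4 groups of 6 that crossed age (young or old) with diet (ND or HFD). The labels name no engineered allele and no drug in any group. For young mice the labels give an age of 6 months and the substrain C57BL/6N, and for old mice 24 months and C57BL/6J, so an effect of age cannot be told apart from one of substrain. The paper gives other ages and does not name the substrains. Mice were fed a normal diet (ND) or a high-fat diet (HFD) for 9 weeks, and the ND is a chow in the labels and a different diet in the paper. Batches 1 and 2 each hold 3 mice of every group, apart from old ND, which has 2 mice in batch 1 and 4 in batch 2. The sample titles give the batches only a number and do not say what set them apart. Each library is labelled as a separate replicate with no pooling of mice named, and p-values measure the spread between these samples. The questions addressed are what HFD did to each transcript at each age, what age did on each diet, and whether the HFD effect differed between ages.

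Total counts per mouse ranged from 9200332 to 22185069, and the totals of the old HFD mice (at most 13517632) were all below those of the other mice (at least 13692834). Levels below are CPM, counts scaled to a common library total, after TMM scaling for composition. The 7 hepatocyte markers Alb, Apoa1, Ttr, Cps1, Apob, Cyp2e1 and Serpina1a summed to between 47084 and 162258 CPM in all 24 mice. The 5 markers of Kupffer cells and macrophages summed, in young mice, to 1.14 to 58.2 CPM on ND and 9.54 to 151 on HFD, and in old mice to 29.8 to 923 on ND and 47.5 to 473 on HFD. Old ND replicate 4 had both the lowest hepatocyte sum and the highest macrophage sum. In bulk RNA, fewer cells of a type and less RNA per cell cannot be told apart.

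The levels of the 7 transcripts spanned a wide range, and a few made up nearly all of the total. On the deposited FPKM scale, which corrects for transcript length, the means over 24 mice were 707 for Ahsg, 408 for Selenop, 78.3 for Angptl8, 22.4 for Fetub, 15.4 for Inhbe, 7.11 for Tsku and 0.95 for Fst. The ranges of Selenop (280 to 588 FPKM) and Angptl8 (20.9 to 189 FPKM) did not overlap, whereas those of every other pair of neighbours in this order did. Counts divided by the annotated exon length gave another order in the middle, with Fetub at 236 CPM per kilobase above Angptl8 at 115, and Tsku at 23.4 above Inhbe at 14.2. The order of these 2 pairs therefore depended on the length used. Ahsg, Selenop and Fetub together held 95.7% to 98.5% of the summed CPM of the 7 transcripts in each mouse.

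**Figure D1:**
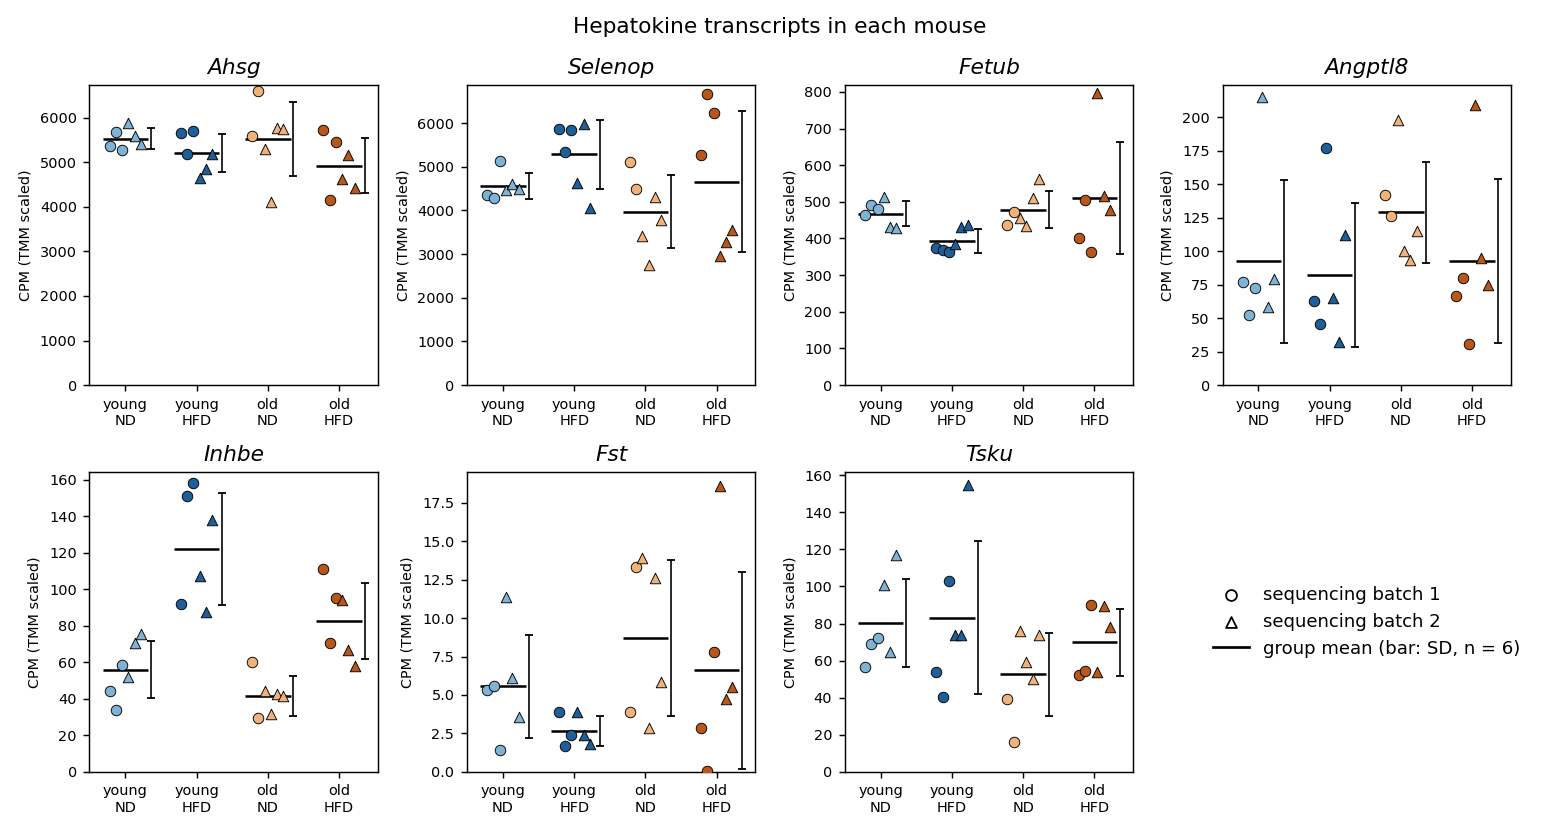
Level of each of the 7 hepatokine transcripts in every mouse, in CPM on a linear axis from 0, by group. Circles are batch 1 and triangles batch 2, which the key calls sequencing batches although the sample titles give only a batch number. Horizontal lines are group means and bars the SD (n = 6). Inhbe in young HFD (87.7 to 158 CPM) lies above every young ND mouse (34.1 to 75.4 CPM), while the groups overlap for the other 6 transcripts.

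Inhbe encodes the βE chain, and a dimer of it is activin E. Its gene (ENSMUSG00000047492) lies on the minus strand of chromosome 10, from 127348857 to 127354411 in GRCm38, 1910 bases from Inhbc, which encodes the activin C subunit. Inhbe rose on HFD in young and in old mice, and in the model of all 24 mice with batch it was the only one of the 7 transcripts called on HFD. With no count filter Tsku was also called higher (0.57, edgeR adjusted p = 0.0151) and Angptl8 lower (-0.52, edgeR adjusted p = 0.0295) in old HFD over old ND. Fst was called lower in young HFD over young ND (-1.0, edgeR adjusted p = 0.00317). That fit moved p-values at nearly the same fold changes. In young mice the edgeR unadjusted p on HFD went from 1.74e-05 to 7.67e-13 for Inhbe and from 0.0616 to 0.129 for Fetub. The reason was not tested, and calls from that fit alone are not read as support. Every edgeR adjusted p below is from its quasi-likelihood test, with Benjamini-Hochberg adjustment over the genes tested in that fit. These were 13583 genes, or another number where the text names a single batch, some of the mice or another filter. In young HFD over young ND, 1 of 7 transcripts was called (higher), where 3.5% of all tested genes were called, 1.91% higher and 1.59% lower. These 475 genes became 146 without young ND replicate 2 and 998 without old HFD replicate 2. In old HFD over old ND, 1 of 7 was called (higher), against 3.01% of all genes, 1.37% higher and 1.64% lower. These 409 genes became 84 without old ND replicate 2 and 823 without old HFD replicate 3.

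In young ND the lowest Inhbe level was 34.1 CPM, the median 55.3 and the highest 75.4. In young HFD these values were 87.7, 123 and 158 CPM. All 6 young HFD mice were above all 6 young ND mice, a separation that 4.82% of tested genes showed. The group means were 55.8 ± 15.6 CPM and 122 ± 30.6 CPM (SD, n = 6), a ratio of 2.19. The log2 fold change was 1.12 ± 0.21 (SE, 95% interval 0.69 to 1.56, edgeR adjusted p = 0.00442). It was 1.55 in batch 1 alone (edgeR adjusted p = 0.0399) and 0.78 in batch 2 alone (edgeR adjusted p = 0.432), so the call was lost in batch 2, with 3 mice per group.

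In old ND the lowest, median and highest Inhbe levels were 29.6, 42 and 60.4 CPM, and in old HFD they were 57.7, 82.2 and 111 CPM. Here 5 of 6 old HFD mice were above every old ND mouse, and the groups overlapped by 1 mouse on each side. Mean levels were 41.7 ± 11 and 82.6 ± 20.6 CPM (SD, n = 6), a ratio of 1.98. The log2 fold change was 0.97 ± 0.21 (SE, 95% interval 0.54 to 1.41, edgeR adjusted p = 0.0166). Within batches it was 1.0 in batch 1 (edgeR adjusted p = 0.31) and 0.88 in batch 2 (edgeR adjusted p = 0.166), the same direction without a call. The call did not hold without old ND replicate 2 (edgeR adjusted p = 0.0605) or in a model of the old mice alone (edgeR adjusted p = 0.126), which called 15 of all 12587 genes.

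The 2 HFD effects on Inhbe did not differ by the test of their difference. Old minus young was -0.15 ± 0.29 on the log2 scale (SE, 95% interval -0.76 to 0.46, edgeR adjusted p = 0.905), an interval that includes 0 and also a difference of moderate size. By age, Inhbe was not called on either diet in the model of all mice, and with no count filter it was called lower in old HFD over young HFD (-0.61, edgeR adjusted p = 0.00493). Old over young was -0.42 ± 0.21 on ND (95% interval -0.85 to 0.02, edgeR adjusted p = 0.244) and -0.57 ± 0.21 on HFD (95% interval -1.0 to -0.14, edgeR adjusted p = 0.13), and 3 of 6 old HFD mice were below every young HFD mouse. The order of the group means was therefore young HFD, old HFD, young ND and old ND. Of these neighbours, only old HFD and young ND differed past the threshold, with a log2 fold change of 0.56 ± 0.21 (95% interval 0.12 to 0.99, edgeR adjusted p = 0.0468) in a comparison where 30.2% of genes were called (17.3% higher, 12.9% lower) and age, substrain and diet all differ. That call was lost in 8 of the 11 other fits to whole groups or single batches. These comparisons share groups and are not independent of each other.

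Marker sums of macrophages, endothelial cells, stellate cells and cholangiocytes had higher medians in young HFD than in young ND. The medians were 17.4 and 71.8 CPM for macrophages, 39.8 and 84.4 for endothelial cells and 29.9 and 55.8 for stellate cells, with overlapping ranges, while the 4 cholangiocyte markers summed to 3.51 to 7.56 CPM on ND and 7.82 to 22.4 on HFD, without overlap. Their part in the Inhbe difference was not tested. In old mice every list's ranges overlapped between the diets. The medians on ND and HFD were 127522 and 93444 CPM for the hepatocyte markers, 67.8 and 81.1 for macrophages, 9.89 and 15.3 for cholangiocytes, 1.87 and 6.45 for neutrophils and 1.56 and 3.24 for T and NK cells, while the endothelial and stellate medians were lower on HFD (94.7 and 69.9, and 98.9 and 57.9). Their part in the Inhbe difference in old mice was not tested. Without old ND replicate 4, the mouse with the highest macrophage sum, the Inhbe log2 fold change in old mice was 0.94 (edgeR adjusted p = 0.027).

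**Figure D2:**
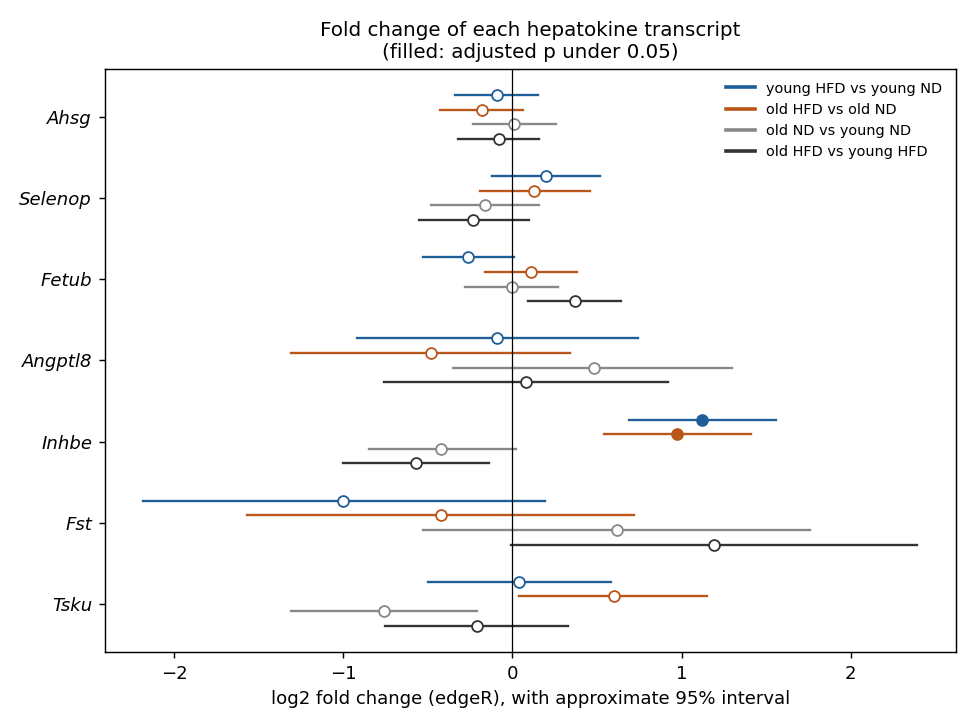
Log2 fold change of each hepatokine transcript in 4 comparisons, with approximate 95% intervals from edgeR. Filled points have an adjusted p under 0.05, and only Inhbe has them, at 1.12 in young and 0.97 in old mice on HFD. The widest intervals are those of Fst, the transcript with the fewest counts.

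RefSeq promoter windows of GRCm38.p6 (250 bases before to 50 after a start) matched 6 of the 7 genes, all but Fst. They were searched on both strands for TGATGNAA, a letter pattern bound by ATF4 with C/EBP factors, which 3.97% of all 32851 promoter windows hold. Inhbe and Angptl8 each held 1 match, and no other member did. Both are shown in 30 bases, 5′ to 3′ on the strand of the gene, because they let the called and an uncalled transcript with the same letters be set side by side. The capitals mark the match.
Inhbe (chr10:127352011-127352040, minus strand): catcctctttcTTGCATCAtgcatgtccac
Angptl8 (chr9:21835369-21835398, plus strand): agccatcagtcTGATGCAAtggctgagcct
In Inhbe the match is on the strand opposite to the gene and begins 181 bases upstream of the RefSeq start, inside an exon that GENCODE annotates as untranslated sequence of a longer Inhbe transcript. In Angptl8 it is on the strand of the gene, 130 bases upstream of the start, inside a transcript of Dock6 on the other strand. Of the 2 transcripts with a match, Inhbe was called on HFD and Angptl8 was not in the model of all mice, while with no count filter Angptl8 was called lower in old HFD over old ND (-0.52, edgeR adjusted p = 0.0295). A match is a description of the letters and not of binding.

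The other patterns, also searched on both strands, were TGTTTAC for FOXO factors, in 3.65% of windows, and CAAAGT as part of an HNF4 site, in 14.4% of windows. The TATA box, TATAAA, was in 13.6% of windows and the E-box, CACGTG, in 7.15% of them. Selenop and Fetub each had windows with the FOXO, HNF4 and TATA letters, Ahsg had a window with the HNF4 letters at 2 positions, and the E-box was in no member's window. Inhbe, Angptl8 and Tsku held none of these 4.

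Follistatin is a secreted antagonist of some activins, and whether it acts on activin E was not tested here. Fst (ENSMUSG00000021765, chromosome 13, 114452290 to 114458951, minus strand) had the lowest level of the 7. In young mice its lowest, median and highest levels were 1.39, 5.45 and 11.4 CPM on ND and 1.69, 2.39 and 3.9 on HFD. In old mice they were 2.85, 9.19 and 13.9 CPM on ND and 0.0766, 5.12 and 18.6 on HFD. The lowest old HFD value is 1 count, in replicate 2. No group separated from another. Fst was not called, with log2 fold changes of -1.0 ± 0.57 on HFD in young mice (95% interval -2.18 to 0.19, edgeR adjusted p = 0.334) and -0.42 ± 0.56 in old mice (95% interval -1.57 to 0.72, edgeR adjusted p = 0.71). Old over young was 0.62 ± 0.55 on ND and 1.19 ± 0.58 on HFD (edgeR adjusted p = 0.56 and 0.241). With no count filter edgeR called Fst lower in young HFD over young ND (adjusted p = 0.00317) and higher in old HFD over young HFD (1.14, adjusted p = 0.000786). The limit of that fit is given above. The HFD value in old mice was -1.30 in batch 1 and 0.15 in batch 2 (edgeR adjusted p = 0.546 and 0.95), and ran from -0.98 without old HFD replicate 4 to -0.04 without old ND replicate 2.

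The ratio of Inhbe to Fst in CPM describes mRNA levels in each mouse and is not a measure of activin E blocked by follistatin. Its median in young mice was 9.89 on ND (4.57 to 42.1) and 51.4 on HFD (23.5 to 89.3). In old mice it was 5.26 on ND (2.22 to 15.6) and 13.2 on HFD (5.06 to 919). The highest old HFD ratio is that of the mouse with 1 Fst count.

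The list of activin and follistatin signalling genes, with the other inhibin subunits, activin and TGF-β receptors and SMADs, had 20 of its 24 genes tested. Of these, edgeR called 0 on HFD in young mice and 0 in old mice, where 3.5% and 3.01% of all genes were called. At an unadjusted p under 0.05 there were 8 and 3, beside 2885 and 2990 of all 13583 genes. The median log2 fold change over the list was -0.08 in young and -0.15 in old mice, beside 0.01 and -0.01 over all genes. Inhbc, the neighbour of Inhbe, was not called on HFD at either age. Its level in young mice was 90.4 ± 11.4 CPM on ND and 91.2 ± 24.8 on HFD, and in old mice 68.1 ± 13.5 on ND and 84.7 ± 30.9 on HFD (SD, n = 6). HFD changed it by -0.05 ± 0.16 in young (edgeR adjusted p = 0.912) and 0.37 ± 0.16 in old mice (edgeR adjusted p = 0.167). In old over young ND it fell by 0.52 on the log2 scale (SE 0.16, edgeR adjusted p = 0.0418).

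Inhba, the activin A subunit, had a log2 fold change of -0.93 ± 0.32 on HFD in young mice (edgeR adjusted p = 0.099), and Inhbb, the activin B subunit, 2.92 ± 0.91 (edgeR adjusted p = 0.072). Neither passed the threshold, and in old mice the values were -0.35 ± 0.32 and -0.15 ± 0.76 (edgeR adjusted p = 0.557 and 0.94). Inhbb had a median of at most 1.91 CPM in any group.

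With age, 3 genes of this list were higher and 1 lower in old ND, beside 8.5% called of all genes (7.26% higher, 1.24% lower). The higher genes were Fstl1, a follistatin-like protein that stromal cells secrete (log2 fold change 3.49 ± 0.76, edgeR adjusted p = 0.006), Gdf2, which encodes BMP9 (2.03 ± 0.57, edgeR adjusted p = 0.027), and Tgfbr2, and the lower gene was Inhbc. The summed stellate cell and fibroblast markers were also higher, at 48.8 to 393 CPM in old ND against 5.53 to 70.2 in young ND, and their part in these calls was not tested. Acvr2b, a type II activin receptor, rose in old HFD over young HFD (1.75 ± 0.36, edgeR adjusted p = 0.0171).

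Tsukushi is a secreted factor that has been linked to energy expenditure and cholesterol handling. Tsku (ENSMUSG00000049580, chromosome 7, 98350668 to 98361328, minus strand) had lowest, median and highest levels of 56.6, 70.7 and 117 CPM in young ND and 40.2, 73.7 and 155 in young HFD. In old ND they were 16.2, 54.7 and 76.2 CPM, and in old HFD 52.1, 66.3 and 90.2. Old ND was the lowest group, with 3 of 6 mice below every young ND mouse, and the other groups overlapped widely. Old over young ND was -0.76 ± 0.27 (95% interval -1.31 to -0.21, edgeR adjusted p = 0.0797), short of the threshold. Its call depended on the fit, as DESeq2 gave -0.73 (adjusted p = 0.0483) and the model with the replicate block -0.71 (edgeR adjusted p = 0.0387).

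HFD changed Tsku by 0.04 ± 0.26 in young (95% interval -0.50 to 0.58, edgeR adjusted p = 0.952) and 0.60 ± 0.27 in old mice (95% interval 0.04 to 1.15, edgeR adjusted p = 0.196). The difference between these effects was 0.55 ± 0.38 (95% interval -0.22 to 1.33, edgeR adjusted p = 0.654). Within batches the old HFD value was 1.19 in batch 1 and 0.20 in batch 2 (edgeR adjusted p = 0.314 and 0.842), and the 2 old ND mice of batch 1 had the lower mean, 27.8 CPM against 64.8 in batch 2.

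ANGPTL8 is induced by insulin and feeding. Angptl8 (ENSMUSG00000047822, chromosome 9, 21835510 to 21837347, plus strand) ranged from 52.7 to 215 CPM in young ND (median 74.5) and from 32 to 177 in young HFD (median 64). Old ND ranged from 93.1 to 198 CPM (median 121) and old HFD from 30.8 to 209 (median 77.4). In young ND and in old HFD a single mouse lay far above the other 5, and every group overlapped every other. HFD changed it by -0.09 ± 0.40 in young (95% interval -0.92 to 0.74, edgeR adjusted p = 0.934) and -0.48 ± 0.40 in old mice (95% interval -1.31 to 0.34, edgeR adjusted p = 0.506). The batches differed in direction in young mice, with 0.49 in batch 1 and -0.73 in batch 2 (edgeR adjusted p = 0.738 and 0.731), and in size in old mice, with -1.23 and 0.02 (edgeR adjusted p = 0.331 and 0.992). When 1 mouse was left out, the value in young mice ran from -0.56 without young HFD replicate 3 to 0.28 without young ND replicate 4, and that in old mice from -0.85 without old HFD replicate 4 to -0.29 without old HFD replicate 3. Old over young was 0.48 ± 0.40 on ND (edgeR adjusted p = 0.528) and 0.08 ± 0.41 on HFD (edgeR adjusted p = 0.931), the latter from -0.27 without old HFD replicate 4 to 0.53 without young HFD replicate 3.

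Of the 10 genes on the lipoprotein lipase list, 1 was higher on HFD in young mice and 1 in old mice. The gene in young mice was Lipg, endothelial lipase (1.10 ± 0.28, edgeR adjusted p = 0.0312), which in old mice had 1.01 ± 0.29 (edgeR adjusted p = 0.0528). The gene in old mice was Apoc3, an apolipoprotein that inhibits lipoprotein lipase (0.88 ± 0.22, edgeR adjusted p = 0.0324). Angptl4, an inhibitor of lipoprotein lipase that fasting induces, was changed by 0.48 ± 0.45 and 0.51 ± 0.45 (edgeR adjusted p = 0.602 and 0.544). In old over young ND, Lpl itself was the 1 called gene (2.64 ± 0.62, edgeR adjusted p = 0.00962), where 8.5% of all genes were called. Macrophage marker sums had medians of 67.8 CPM in old ND and 17.4 in young ND, and their part was not tested.

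The lipogenic genes that insulin and sugar induce, a list of 14, had 0 called by edgeR in young mice on HFD, where 3.5% of all genes were called. In old mice 1 was called lower, where 3.01% of all genes were called. It was Acaca, which encodes acetyl-CoA carboxylase (-0.96 ± 0.22, edgeR adjusted p = 0.0231). At an unadjusted p under 0.05 there were 6 of 14 in young and 10 of 14 in old mice, beside 2885 and 2990 of all 13583 genes. The list median was -0.53 in young and -0.91 in old mice, where the median of all genes was 0.01 and -0.01. Angptl8, which is responsive to the same signals, had the values -0.09 and -0.48 above.

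Fetuin-A is among the most abundant proteins that the liver secretes. Ahsg (ENSMUSG00000022868) and Fetub (ENSMUSG00000022871) are neighbours on the plus strand of chromosome 16, at 22891277 to 22899449 and 22918334 to 22939778, 18884 bases apart. Per length, in FPKM, Ahsg had the highest mean level of the 7 in each group. In CPM its mean was 5536 ± 233 CPM on ND and 5209 ± 427 on HFD in young mice, and 5525 ± 821 and 4921 ± 617 in old mice (SD, n = 6). HFD changed it by -0.09 ± 0.12 in young (95% interval -0.34 to 0.15, edgeR adjusted p = 0.723) and -0.18 ± 0.12 in old mice (95% interval -0.43 to 0.06, edgeR adjusted p = 0.38). Old over young was 0.01 on ND and -0.08 on HFD (edgeR adjusted p = 0.969 and 0.735).

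Fetub had its lowest median in young HFD. Its lowest, median and highest levels were 428, 472 and 512 CPM in young ND and 362, 379 and 438 in young HFD, where 4 of 6 mice were below every young ND mouse. In old ND they were 433, 465 and 562 CPM and in old HFD 362, 492 and 797. On HFD, 4 of 6 old mice were above every young mouse. The log2 fold change on HFD was -0.26 ± 0.13 in young (95% interval -0.53 to 0.01, edgeR adjusted p = 0.263) and 0.11 ± 0.13 in old mice (95% interval -0.16 to 0.38, edgeR adjusted p = 0.674). The old value rested on old HFD replicate 4, the mouse at 797 CPM, without which it was -0.04 (edgeR adjusted p = 0.879), and it was -0.15 in batch 1 and 0.30 in batch 2 (edgeR adjusted p = 0.685 and 0.596). The difference between the HFD effects, 0.37 ± 0.19 (95% interval -0.02 to 0.75, edgeR adjusted p = 0.553), was not called, nor was old over young HFD at 0.37 ± 0.13 (95% interval 0.09 to 0.64, edgeR adjusted p = 0.126). Without old HFD replicate 4 these were 0.18 and 0.21. DESeq2 gave 0.40 for old over young HFD (adjusted p = 0.0496).

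Among the 8 tested genes of the cystatin family and the insulin receptor pathway that fetuin-A touches, 1 was lower on HFD in young mice, where 3.5% of all genes were called. In old mice edgeR called 0, where 3.01% of all genes were called (3 at an unadjusted p under 0.05, beside 2990 of all 13583 genes). The lower gene was Irs2, an insulin receptor substrate prominent in the fasted liver, at 18.5 ± 6.84 CPM on ND and 8.83 ± 2.5 on HFD (log2 fold change -1.06 ± 0.26, edgeR adjusted p = 0.0251). Kng2, a kininogen with cystatin domains, was higher in old ND over young ND (0.45 ± 0.12, edgeR adjusted p = 0.0218).

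Selenoprotein P is the carrier of selenium in plasma. Selenop (ENSMUSG00000064373, chromosome 15, 3268547 to 3280508, plus strand) had mean levels in young mice of 4557 ± 298 CPM on ND and 5283 ± 782 on HFD, and in old mice of 3974 ± 838 on ND and 4658 ± 1612 on HFD (SD, n = 6). In old HFD the 3 mice of batch 1 had a mean of 6060 CPM and the 3 of batch 2 a mean of 3255, and in old ND the batch means were 4796 and 3564. In young mice they were 4590 and 4523 on ND and 5679 and 4886 on HFD, so batch 1 was the higher in each group, by the most in old HFD. HFD changed Selenop by 0.20 ± 0.16 in young (95% interval -0.12 to 0.52, edgeR adjusted p = 0.507) and 0.13 ± 0.16 in old mice (95% interval -0.19 to 0.46, edgeR adjusted p = 0.67). In old mice it was 0.29 within batch 1 and -0.12 within batch 2 (edgeR adjusted p = 0.432 and 0.884).

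The selenoprotein list, of which 24 genes were tested, had 1 gene higher and 2 lower on HFD in young mice, and 1 higher and 1 lower in old mice. Of all tested genes, 3.5% were called in young and 3.01% in old mice. The higher gene was at both ages Dio1, the deiodinase that activates thyroid hormone. Its levels in young mice were 70.5 to 114 CPM on ND and 125 to 239 on HFD, and in old mice 39.7 to 62.7 on ND and 89.7 to 163 on HFD. Neither pair of diet groups overlapped, as was so for 4.82% of tested genes in young and 1.26% in old mice. The log2 fold changes were 0.88 ± 0.16 in young and 1.26 ± 0.17 in old mice (edgeR adjusted p = 0.00413 and 0.000286). In old over young ND it fell by 0.87 on the log2 scale (SE 0.17, edgeR adjusted p = 0.00362). Txnrd1, the cytosolic thioredoxin reductase, was lower at both ages (-0.44 ± 0.12 and -0.46 ± 0.12, edgeR adjusted p = 0.0428 and 0.0363). Lrp2, a receptor that takes up selenoprotein P in kidney, was lower in young mice (-2.18 ± 0.48, edgeR adjusted p = 0.0169). In old ND over young ND, Gpx3, the plasma glutathione peroxidase, was higher (4.81 ± 0.87, edgeR adjusted p = 0.00318), as was Selenon, while Gpx1 and Dio1 were lower. In the same comparison the median marker sums in young and old mice were 17.4 and 67.8 CPM for macrophages, 29.9 and 98.9 for stellate cells, and 39.8 and 94.7 for endothelial cells, with old ND replicate 4 the highest in each, and their part was not tested.

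For comparison, a list of 24 other secreted liver factors had 1 higher and 1 lower gene in young HFD over young ND, and 2 higher in old HFD over old ND. In these comparisons 3.5% and 3.01% of all tested genes were called. Lect2, a hepatokine that rises in fatty liver, was called at both ages. Its level in young mice ran from 85.2 to 124 CPM on ND and 139 to 222 on HFD, and in old mice from 68.9 to 109 on ND and 121 to 260 on HFD. The diets did not overlap at either age, as was so for 4.82% of tested genes in young and 1.26% in old mice. Its log2 fold changes were 0.70 ± 0.17 and 0.75 ± 0.17 (edgeR adjusted p = 0.0274 and 0.0232), smaller than the Inhbe values of 1.12 and 0.97, a difference between genes that was not tested. Igfbp1, an insulin-suppressed binding protein for insulin-like growth factors, was lower in young HFD (-1.95 ± 0.47, edgeR adjusted p = 0.0246).

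Fgf21, a hepatokine of fasting and protein restriction, had log2 fold changes on HFD of 0.61 ± 0.36 in young and 0.77 ± 0.38 in old mice (edgeR adjusted p = 0.36 and 0.236), at group means of 2.38 to 5.89 CPM. Gdf15, a stress-induced factor that lowers food intake, had 0.68 ± 0.35 and 0.21 ± 0.35 (edgeR adjusted p = 0.27 and 0.775).

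With age, 0 of the 7 hepatokine transcripts were called by the edgeR model of all mice with batch on either diet, where 8.5% of all genes were called on ND and 2.24% on HFD (1.82% higher, 0.42% lower). The 1155 genes on ND became 586 without old ND replicate 4 and 1592 without old HFD replicate 2. The 304 on HFD became 40 without young HFD replicate 4 and 813 without old HFD replicate 3. Other edgeR fits called Tsku on ND (no filter, replicate block, only the 2 groups) and Inhbe and Fst on HFD (no filter). At an unadjusted p under 0.05, edgeR gave 1 of 7 on ND (Tsku) and 2 of 7 on HFD (Fetub and Inhbe), beside 3020 and 2848 of all 13583 genes, and DESeq2 called 1 on each diet, Tsku on ND and Fetub on HFD, where it called 1676 and 859 of all 13583 genes. For the difference of the HFD effect between ages, 0 of 7 were called by edgeR or DESeq2, and 0 of 7 had an unadjusted p under 0.05 in edgeR. Over all 13583 genes, edgeR called 0 (0%), with 1247 at an unadjusted p under 0.05, and DESeq2 called 4. Of the 24 other factors, 6 were higher and 0 lower in old ND over young ND. They included Serpinb1a, a serpin reported to promote beta-cell growth (1.62 ± 0.30, edgeR adjusted p = 0.00328), and Gpnmb, a glycoprotein also made by macrophages (5.39 ± 1.02, edgeR adjusted p = 0.00339). Serpinb1a was also higher in old HFD over old ND (1.25 ± 0.29, edgeR adjusted p = 0.0231) and over young HFD (2.24 ± 0.30, edgeR adjusted p = 0.000676). Macrophage marker sums moved in the same direction with age on ND. Neutrophil marker medians were 0.0995 CPM on ND and 0.288 on HFD in young mice, and 1.87 and 6.45 in old mice. Those of T and NK cells were 0.187 and 0.584, and 1.56 and 3.24. Both moved in the direction of Serpinb1a in each of its comparisons. Endothelial, hepatocyte and red blood cell medians were lower in old HFD than in either group it was compared with here. The part of these cell types was not tested.

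**Figure D3:**
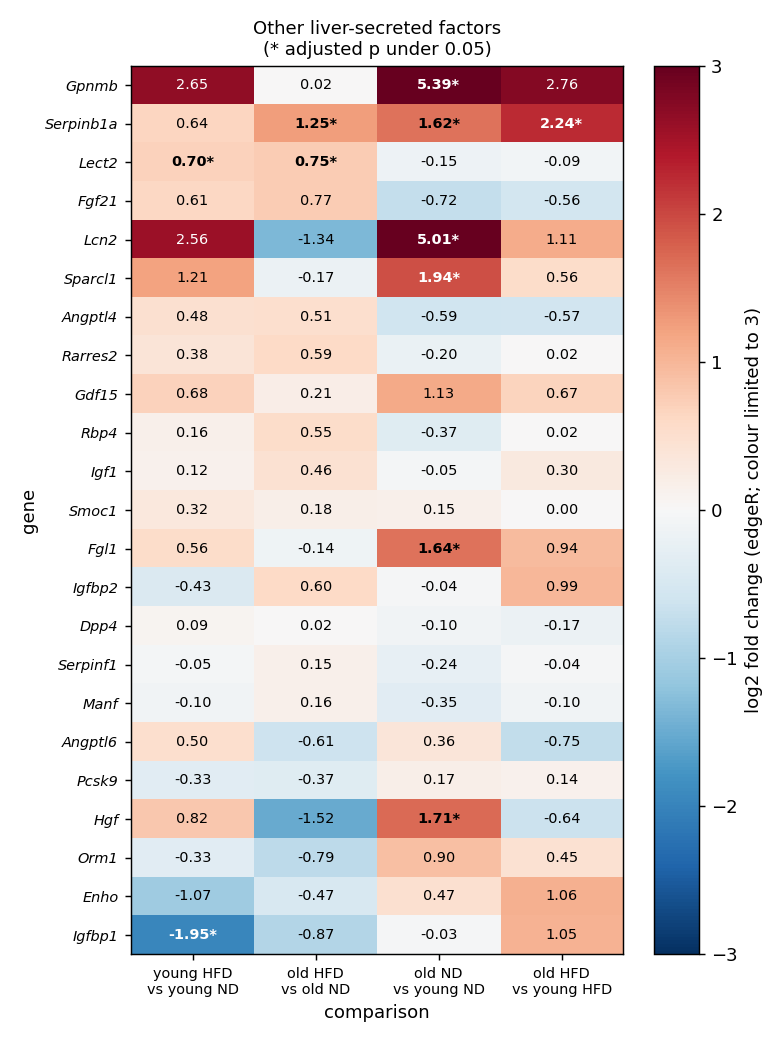
Log2 fold changes of other secreted liver factors in 4 comparisons, with colour limited to 3 in either direction and a star where the edgeR adjusted p was under 0.05. Lect2 has a star on HFD at both ages (0.70 and 0.75), and 6 genes have one in old ND over young ND.

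Of 15 transcription factors reported upstream of hepatokine genes, edgeR called 0 in young mice on HFD, where 3.5% of all genes were called. At an unadjusted p under 0.05 there were 4, beside 2885 of all 13583 genes. In old mice 1 was called, higher, where 3.01% of all genes were called. That gene was Creb3l3, a liver membrane-bound factor of fasting and lipid metabolism (0.50 ± 0.12, edgeR adjusted p = 0.0309), and in old over young ND it was lower (-0.41 ± 0.12, edgeR adjusted p = 0.0404).

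The comparison of old HFD with young ND changes age, substrain and diet together, and 30.2% of all genes were called in it. Of the 7 transcripts Inhbe alone was called, as above. The 4 genes with the smallest adjusted p of the activin and other secreted lists were Serpinb1a (2.88 ± 0.31, edgeR adjusted p = 4.08e-06), Gpnmb (5.41 ± 1.02, edgeR adjusted p = 0.000775), Fstl1 (3.25 ± 0.75, edgeR adjusted p = 0.0034) and Acvr2b (1.43 ± 0.36, edgeR adjusted p = 0.00578). Gdf15 was higher as well (1.34 ± 0.35, edgeR adjusted p = 0.0073). Of the lipogenic list, 7 of 14 were lower and 0 higher, led by Me1, malic enzyme (-1.74 ± 0.33, edgeR adjusted p = 0.000764), and Acly, ATP citrate lyase (-1.17 ± 0.29, edgeR adjusted p = 0.00482). In the remaining lists the leading genes were Lrp2 (-2.82 ± 0.52) and Gpx3 (4.79 ± 0.88), Lpl (2.81 ± 0.62) and Apoc3 (0.80 ± 0.22), Cst3 (0.53 ± 0.13) and Irs1 (-1.53 ± 0.39), and Hnf4a (-0.73 ± 0.18) and Cebpb (0.81 ± 0.25), with edgeR adjusted p from 0.000681 to 0.0169. Median marker sums in young ND and old HFD were 17.4 and 81.1 CPM for macrophages, 29.9 and 57.9 for stellate cells and 0.0995 and 6.45 for neutrophils. The hepatocyte medians, 128233 and 93444 CPM, and the red blood cell medians, 126 and 59.6, went the other way. Their part in these calls was not tested.

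The tested genes whose log2 CPM followed each transcript most closely over the 24 mice were found by Pearson's r, given as a description without a p because mice share group, batch and depth. For Inhbe they were Lamb3, a laminin chain (r = 0.85), and Lipg (r = 0.83). Once group and batch means were taken out, these were 0.36 and 0.55, so much of the likeness was that of the group means. Lamb3 levels in young mice were 2.49 to 6.81 CPM on ND and 9.3 to 16.8 on HFD, and in old mice 1.96 to 3.46 on ND and 3.78 to 12 on HFD. It rose on HFD by 1.5 ± 0.24 in young and 1.34 ± 0.25 in old mice (edgeR adjusted p = 0.00108 and 0.00658). The diet groups did not overlap at either age, as was so for 4.82% of tested genes in young and 1.26% in old mice. Lamb3 was picked for following Inhbe in these same mice, which favoured a rise on HFD, so these values are not independent support.

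**Figure D4:**
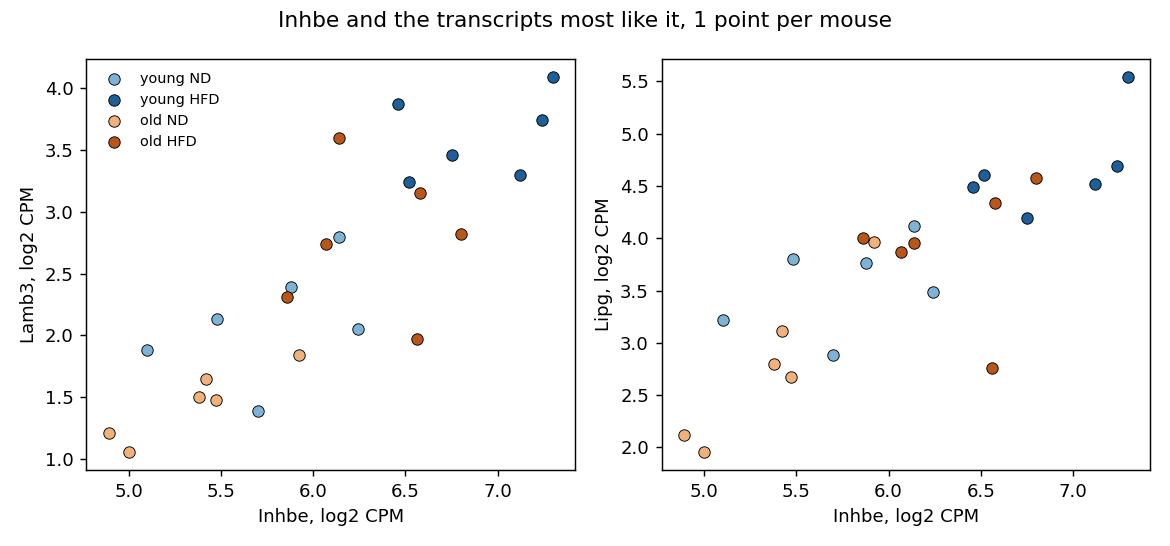
Inhbe against Lamb3 (left) and Lipg (right) in log2 CPM, 1 point per mouse, coloured by group. Pearson's r over the 24 mice is 0.85 and 0.83, and young HFD mice lie at the upper right and most old ND mice at the lower left.

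For the other transcripts the likeness stayed higher within groups, except for Tsku. Selenop was most like Rnf13 (r = 0.90, 0.84 with group and batch means taken out) and Acot13 (0.89 and 0.83). Among the genes most like Fetub was the ribosomal protein gene Rpsa (0.84 and 0.73). It was higher in old HFD over young HFD (0.56 ± 0.15, edgeR adjusted p = 0.0455), where Fetub had 0.37, and it too was picked for its likeness. Ahsg was most like Acss2, an acetyl-CoA synthetase (0.82 and 0.79), and Anxa6 (0.81 and 0.74). Angptl8 was most like Metrn (0.76 and 0.75) and Coq8b (0.74 and 0.70), Fst like Kcnh7 (0.86 and 0.86) and Plxnb1 (0.84 and 0.82), and Tsku like Dcun1d3 (0.67 and 0.39) and Gde1 (0.65 and 0.31).

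Genes on the opposite strand overlap exons of Ahsg (Gm30505, mean 6.85 CPM), Selenop (Ccdc152, 12.3 CPM) and Fst (Gm47040, 0.0135 CPM). How strand was handled in counting is not stated, so reads of these pairs cannot be told apart. The overlapping genes had far fewer counts than the 3 hepatokine transcripts, which does not show how many reads in shared exons were lost or misplaced.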

How the data were processed

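RNA-seq of isolated hepatocytes from 24 mice was analysed, with group, replicate number and batch taken from the sample labels. Reads were aligned with STAR 2.7.3a to mm10 after FastQC 0.11.8, per the labels, and raw counts of reads per gene from HTSeq 0.11.2 are what the authors deposited. The authors also deposited FPKM values from CuffLinks, adjusted between batches with ComBat. Counts were tested with edgeR 4.0.16 in R 4.3.3, using TMM scaling, filterByExpr by group with a minimum count of 10, 1 model with terms for group and batch over the 24 mice, quasi-likelihood F tests and Benjamini-Hochberg adjustment over 13583 genes at 0.05. SEs were the fold change divided by the square root of F, and intervals used the moderated degrees of freedom. A log2 CPM used a prior count of 2. No molecular identifiers were used, so PCR copies count as reads.

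The members and gene lists were chosen with earlier results of these data known. Named genes were the 7 members, 7 further ligands and ANGPTL genes, the 2 called genes with the smallest adjusted p per list and comparison, and the 2 genes most like each member. Of the genes this rule named, 2 are not reported here. Tgfbr2, Selenon and Gpx1 were named after their values were seen. On counts simulated for young HFD over young ND (13375 genes, 196 changed), 59.8% of the genes with a log2 change of 1 and 90.9% of those with 2 passed the threshold, and 5.13% of calls were false. In 60 pairs of mice of the same group, the smallest chi-square per degree of freedom was 14.4, so all 24 libraries were counted as separate.

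Alternatives were RLE size factors, no count filter, DESeq2 1.42.0, no batch term, a replicate block in place of the batch, only the groups compared, limma 3.58.1 on log2(FPKM + 1) and log2(FPKM + 0.1), each batch alone and leaving out each mouse. Positions and exon lengths are from GENCODE on GRCm38, the mm10 build, and sequences from RefSeq on GRCm38.p6. Protein sequences were not used here. Levels and figures used Python 3.11.15, numpy 2.4.6, pandas 2.3.3 and matplotlib 3.10.9.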

Additional observations from a re-analysis of the deposited data

Results flagged for a closer look

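Angptl8 in young ND replicate 4 lay far above the other 5 mice of its group, at a log2 CPM of 7.75 (215 CPM) where the nearest mouse was at 6.32. The gap was 0.71 of the group's range, above Dixon's critical value for 6 samples. The 7 transcripts in 4 groups gave 28 such groups, 1 was singled out, and chance alone singles out about 1 in 20.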

How the results depend on the processing

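Over 35 settings, no called fold change of the 7 transcripts turned direction, and 0 of the 7 were called for the difference of the HFD effect between ages in every setting that could fit it. Over all genes that difference had 587 calls of 32336 with no count filter, 4 of 13583 with DESeq2, 1 of 13583 with the replicate block and 0 in the other settings that used every mouse or a single batch. The edgeR fit with no count filter moved p-values at nearly the same fold changes, as given above, and its calls carry that limit. The Inhbe call in young HFD over young ND held in all 24 fits that left out a mouse (log2 fold change 1.0 to 1.25, edgeR adjusted p = 0.00266 to 0.0204). Counts of called transcripts moved as follows, and the cause was not tested beyond the smaller number of mice in single batches.

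In young HFD over young ND (1 called), no count filter gave 2 (Fst lower, Inhbe higher; 1473 of 32336 genes called in all) and batch 2 alone gave 0 (9 of 14243). In old HFD over old ND (1 called), no filter gave 3 (Angptl8 lower, Inhbe and Tsku higher; 1108 of 32336). No call remained, 0, with only the 2 groups (15 of 12587), with limma on log2(FPKM + 1) without a filter (108 of 26244), in batch 1 alone (15 of 13543) or in batch 2 alone (16 of 14243). Leaving out a mouse gave 0 to 1, with 0 without old ND replicate 2. In old ND over young ND (0 called), Tsku was the 1 call with no filter (-0.78, edgeR adjusted p = 3.35e-05, 2053 of 32336 genes called), with DESeq2 (1676 of 13583), with the replicate block (1350 of 13583) and with only the 2 groups (-0.80, edgeR adjusted p = 0.0455, 1331 of 12329). In old HFD over young HFD (0 called), no filter gave 2 (Fst higher, Inhbe lower; 1235 of 32336) and DESeq2 gave 1 (Fetub higher; 859 of 13583). In old HFD over young ND (1 called), 0 remained without the batch term, with the replicate block, with only the 2 groups, with limma on log2(FPKM + 1), on log2(FPKM + 0.1) or without a filter, and in either batch alone, where from 617 of 14243 genes (batch 2) to 3478 of 13583 (replicate block) were called. Leaving out a mouse gave 0 to 1, with the Inhbe call kept in 12 of 24 fits.

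Replicate numbers belong to different mice. Residuals of same-numbered mice had a mean correlation of 0.182 (-0.320 to 0.551) over 36 pairs, and -0.047 once batch was taken out, so the numbers were not read as pairs. Under the replicate block the Inhbe log2 fold change was 1.15 in young (edgeR adjusted p = 0.00774) and 1.0 in old mice (edgeR adjusted p = 0.0208), and no other calls changed than those given. Fst had as few as 1 count in a mouse, and old HFD libraries were the shallowest.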

Other observations

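The 7 transcripts differed in how their levels moved from mouse to mouse, which is described here without a test. Their summed level in young mice was 10795 ± 330 CPM on ND and 11176 ± 1014 on HFD, and in old mice 10210 ± 1556 on ND and 10340 ± 1644 on HFD (SD, n = 6). Over the 24 mice, Selenop and Fetub had the lowest r of any pair, -0.57 in log2 CPM (-0.32 with group and batch means taken out), and Fetub and Angptl8 the highest, 0.49 (0.45). Ahsg and Fst had 0.45 (0.62), and Inhbe and Fst -0.36 (-0.02). Selenop also had -0.51 with Fst (-0.27), -0.48 with Angptl8 (-0.33) and 0.45 with Inhbe (0.24). These are not all the pairs. CPM values share a total, which by itself ties abundant transcripts to each other, and no p is given. Outside the 7 transcripts, Ahsg and the lipogenic gene Fasn had r = 0.77 (0.69), Fetub and Atf4 0.73 (0.60), and Selenop and Mlxipl, which encodes the sugar-responsive factor ChREBP, -0.73 (-0.44). These 3 pairs were picked after their values were seen.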
